A study of Homo sapiens with 9 samples.

Results

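The epidermal growth factor receptor (EGFR), its relatives ERBB2 and ERBB3, and 7 genes whose proteins restrain or relay signalling from these receptors were followed in cetuximab-sensitive and cetuximab-resistant colorectal cancer cells. The 10 genes were chosen by symbol for their known roles, though with earlier results of these data already known. All 10 were found among the 58920 genes counted in each library. They comprise the receptors EGFR, ERBB2 and ERBB3, the negative regulators ERRFI1, LRIG1, CBL and CBLB, and the adaptors GRB2, GAB1 and SHC1. RNA was sequenced from LIM1215, an established colorectal cancer cell line without RAS mutations, and from a pair of derivatives, LIM1215-R1 and LIM1215-R2, which arose independently under long exposure to rising amounts of the EGFR antibody cetuximab. LIM1215-parental cells (Parental in the labels) had been passaged alongside without the antibody. Each line gave 3 libraries of polyadenylated RNA, prepared from cells in basal culture without drug. The resistant lines (Resistant_1 and Resistant_2 in the labels) are mixed populations rather than clones, and only part of the cells in each carry an activating HRAS mutation according to the study.

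Ligand binding lets ERBB receptors pair with themselves or each other, and the phosphorylated tails then recruit adaptors that lead to RAS and PI3K. ERBB2 binds no known ligand and ERBB3 has little kinase activity of its own, so both depend on partners. The signal is limited by ubiquitin ligases of the CBL family, which mark active receptors for endocytosis and degradation, by LRIG1, a membrane protein that promotes receptor degradation, and by ERRFI1 (also MIG6), a cytoplasmic protein that binds and inhibits the kinase domain and is itself induced by receptor signalling.

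The libraries held 13737416 to 18725014 counts, and each member gene had at least 90 counts in every library. Of 12 intestinal epithelial markers, 11 had a mean of at least 1 CPM (count scaled to library size) in each line, and KRT20 had 0 counts throughout. The summed epithelial markers were at 13490 to 13860 CPM in parental, 16887 to 17198 CPM in R1 and 15432 to 15843 CPM in R2 libraries. Most of this sum was KRT8 and KRT18, and the list went both ways, with the mean of 5 of the 11 higher and of 6, EPCAM, CDH1, CDX1, CDX2, CDH17 and LGALS4, lower in each resistant line than in parental cells. The part of these markers in the results was not tested. Markers of blood, endothelial and stromal cells summed to between 9.08 and 15.4 CPM per library, most of it CD68, with PTPRC, CD3E, COL1A2 and MS4A1 at 0 in all. The study calls the replicates technical, so p-values measure the spread between these libraries only. All levels are given as CPM after TMM scaling (a correction for differences in library composition). In such bulk RNA, fewer cells of a type and less RNA per cell cannot be told apart.

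The largest differences lay among the negative regulators. ERRFI1 RNA was 2.51-fold and 2.65-fold higher in LIM1215-R1 and LIM1215-R2 than in parental cells, whereas LRIG1 was 2.18-fold and 2.78-fold lower and CBLB 2.55-fold and 3.03-fold lower. ERBB3, ERBB2 and the adaptor GAB1 were also lower in both resistant lines, EGFR was lower in R1 alone of the comparisons with parental cells, and CBL, GRB2 and SHC1 passed the test in neither. A gene passed at an adjusted p of at most 0.01 in edgeR's quasi-likelihood test, Benjamini-Hochberg adjusted over the 19102 genes tested. Between R1 and parental cells, 7 of the 10 members passed, 1 higher and 6 lower, against 27.3% of all genes tested (14.0% higher and 13.4% lower). Between R2 and parental cells 6 passed, 1 higher and 5 lower, against 23.8% of genes (12.3% higher and 11.6% lower). The libraries did not overlap for 9 members in R1 and 8 in R2, as for 44.0% and 42.8% of all genes tested. Genes with more counts pass more readily, and among the 10085 genes averaging 100 counts or more per library, as all members do, the shares were 40.3% and 34.9%. The members' median absolute log2 fold change was 0.58 in R1 and 0.54 in R2, and that of all genes tested 0.30 and 0.28. Both comparisons use the same parental libraries, so they are not independent of each other. The study's further threshold of 1.5 on the log2 scale was set on fold changes shrunk by DESeq2, a step not used here. With that threshold, CBLB in R2 alone qualified, where 4.82% of genes did. In R1 no member did by edgeR or DESeq2, although 8 members had an unadjusted p under 0.05 with edgeR, and 5.14% of all genes qualified.

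**Figure D1:**
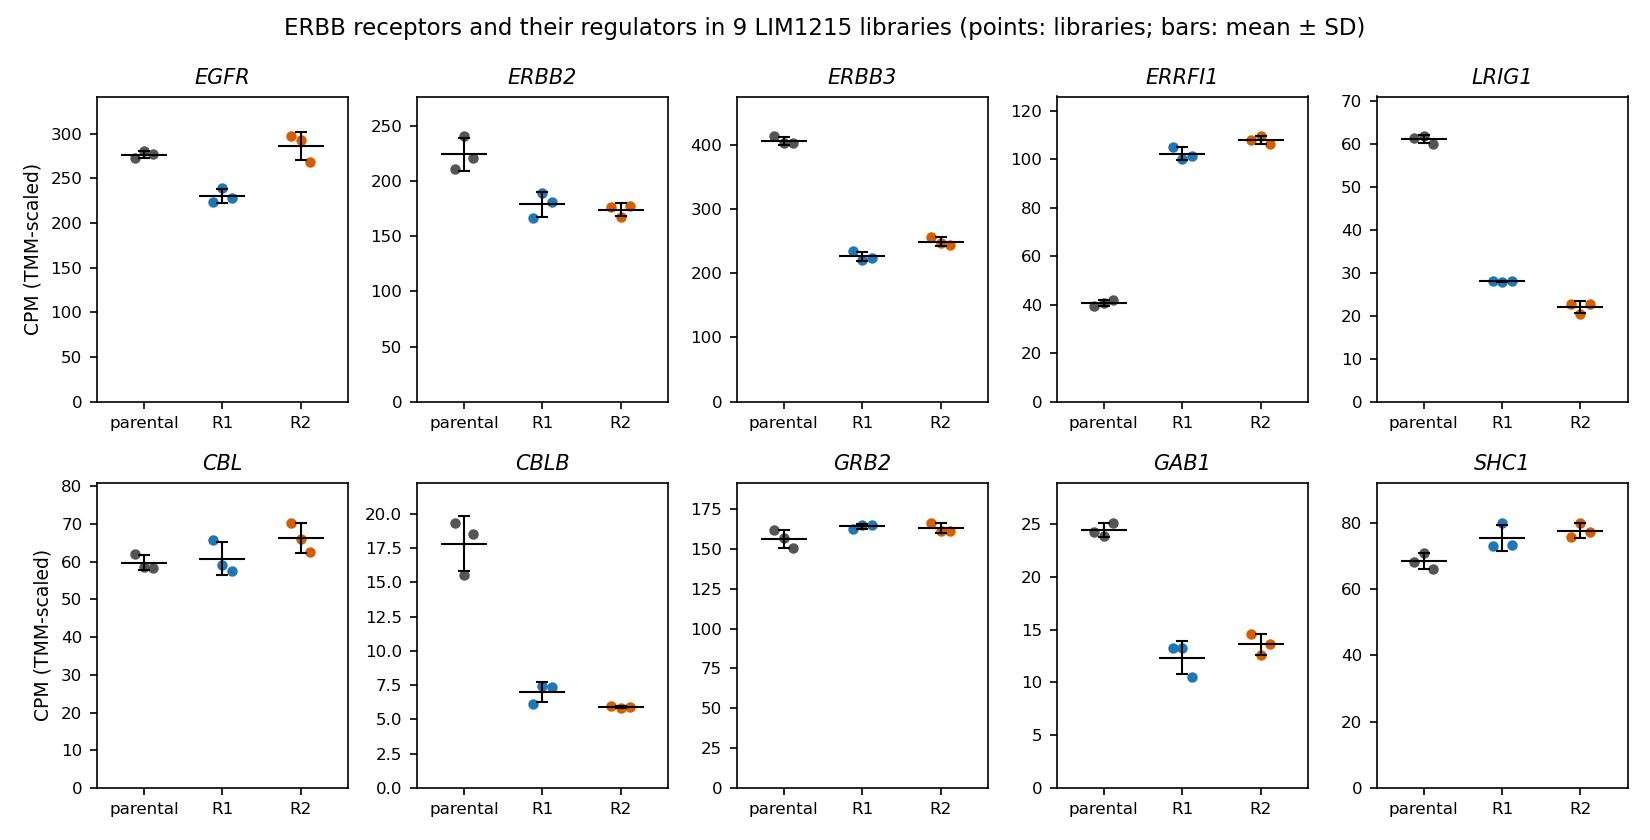
CPM (TMM-scaled, linear axes from 0) of the 10 genes in each of the 9 libraries, with points for libraries and bars for mean ± SD of 3. ERRFI1 averages 40.7 CPM in parental and lies between 99.98 and 109 CPM in all resistant libraries. ERBB2, ERBB3, LRIG1, CBLB and GAB1 lie lower in all 6 resistant libraries than in any parental one.

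EGFR is the receptor that cetuximab binds, and it lies on chromosome 7 from 55019017 to 55211628 on the plus strand (GRCh38.p14, as are all positions here). Its RNA was at 272, 281 and 277 CPM in the parental libraries, at 224, 239 and 228 CPM in R1 and at 297, 292 and 268 CPM in R2. All R1 libraries were below all parental ones, and the R2 libraries overlapped with them. The mean was 277 ± 4.16 CPM (SD, n = 3) in parental, 230.3 ± 8.09 CPM in R1 and 286 ± 15.5 CPM in R2. R1 differed from parental cells by -0.26 on the log2 scale (SE 0.0464, adjusted p = 4.41e-05), a change of -16.7%. R2 differed by 0.05 with a 95% interval of -0.05 to 0.14 (adjusted p = 0.484), so that a change beyond -3.17% or 10.4% lies outside the interval. EGFR-AS1, a transcript from within the EGFR locus, had 7 counts over all 9 libraries.

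ERBB2 (HER2, chromosome 17, 39688094 to 39728658, plus strand), the preferred partner of the other receptors, was at 211, 241 and 221 CPM in parental libraries. The values were 167, 189 and 181 CPM in R1 and 177, 167 and 178 CPM in R2, all lower than any parental value. The log2 differences from parental cells were -0.32 (SE 0.0538, adjusted p = 1.99e-05) in R1 and -0.37 (SE 0.0538, adjusted p = 3.86e-06) in R2. The end of ERBB2 overlaps MIEN1 on the opposite strand, and the reads were counted by strand.

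ERBB3 (HER3, chromosome 12, 56080108 to 56103505, plus strand), whose tail carries many docking sites for PI3K, changed most among the receptors. It was at 413, 402 and 403 CPM in the parental libraries, against 235, 220.4 and 223 CPM in R1 and 256, 247 and 244 CPM in R2. There was a wide gap between parental and resistant libraries and a narrow one between R1 and R2. ERBB3 fell by 0.84 on the log2 scale in R1 (SE 0.0428, adjusted p = 4.44e-15) and by 0.71 in R2 (SE 0.0426, adjusted p = 1.86e-13), that is to levels 1.80-fold and 1.63-fold lower. ERBB4, the remaining family member, had 0 counts in all 9 libraries, which at 3 counts of 146310428 allows up to 0.0205 CPM. This limit covers counting error only.

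Per kilobase of exon sequence, the sum of the receptors was 73.8 ± 1.33 CPM (SD, n = 3) in parental cells, 51.1 ± 0.972 in R1 and 56.1 ± 1.43 in R2, and no resistant library reached the parental range of 72.8 to 75.3. The make-up of the receptor RNA differed as well. ERBB3 contributed 47.0 ± 1.41% in parental cells, 37.8 ± 1.94% in R1 and 37.9 ± 0.0249% in R2. The share of EGFR was 23.5 ± 0.179% in parental cells, 28.3 ± 0.459% in R1 and 32.0 ± 1.18% in R2. EGFR thus took a larger share of a smaller receptor sum in R1, where its own level was lower. ERBB2 made up 29.4 ± 1.47%, 33.9 ± 1.56% and 30.1 ± 1.20% in the same order. The shares are given as a description and were not tested, and their size depends on the transcript length assumed for each receptor. All of these values are of RNA. The study reported unchanged HER2 and HER3 protein, total and on the cell surface, in both resistant lines, and no downregulation of total EGFR.

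**Figure D2:**
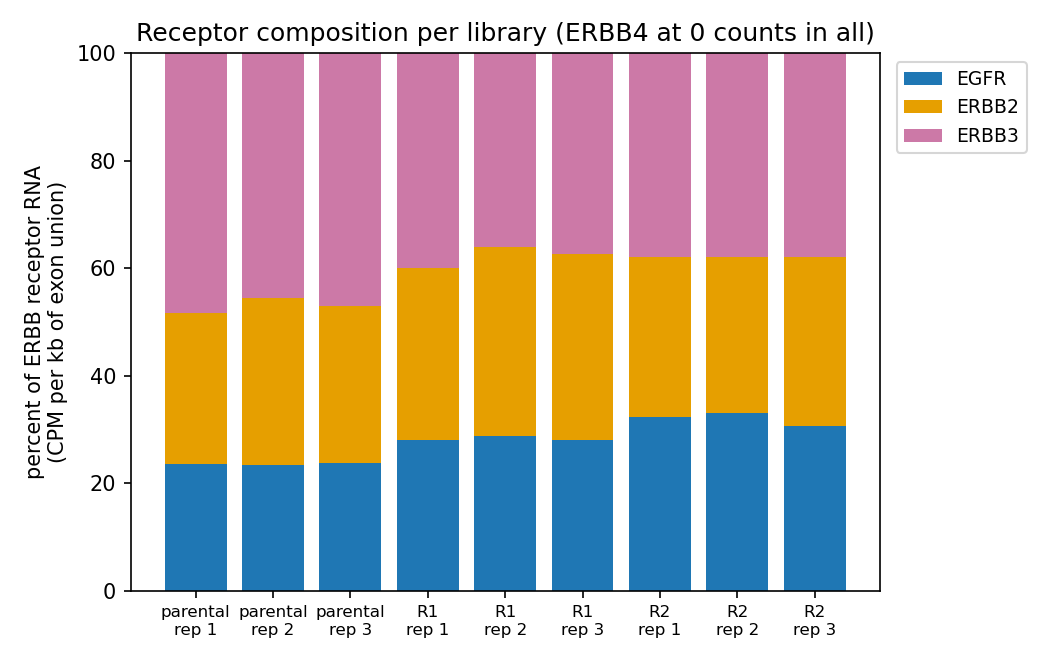
Share of EGFR, ERBB2 and ERBB3 in the summed receptor RNA (percent of CPM per kilobase of exon union) in each of the 9 libraries as stacked bars. The ERBB3 segment is largest in the 3 parental libraries (mean 47.0%) and smaller in R1 (37.8%) and R2 (37.9%), and the EGFR segment grows from 23.5% to 28.3% and 32.0%.

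Among the negative regulators, the promoters of ERRFI1, LRIG1 and CBLB are shown because these genes moved furthest, the first upwards and the other two downwards. The sequences are RefSeq's 250 bases before and 50 bases from the transcription start, written 5′ to 3′ on the strand of the gene. Promoter sequences were found for 7 of the 10 members. Capitals mark the SP1 motif GGGCGG or its reverse complement CCGCCC.
ERRFI1: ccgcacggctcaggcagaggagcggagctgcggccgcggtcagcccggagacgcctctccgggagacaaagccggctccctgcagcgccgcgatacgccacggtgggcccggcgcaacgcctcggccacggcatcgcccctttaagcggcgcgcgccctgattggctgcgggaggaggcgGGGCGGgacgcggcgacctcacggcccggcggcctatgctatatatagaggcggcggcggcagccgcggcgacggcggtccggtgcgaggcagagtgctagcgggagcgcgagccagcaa
LRIG1: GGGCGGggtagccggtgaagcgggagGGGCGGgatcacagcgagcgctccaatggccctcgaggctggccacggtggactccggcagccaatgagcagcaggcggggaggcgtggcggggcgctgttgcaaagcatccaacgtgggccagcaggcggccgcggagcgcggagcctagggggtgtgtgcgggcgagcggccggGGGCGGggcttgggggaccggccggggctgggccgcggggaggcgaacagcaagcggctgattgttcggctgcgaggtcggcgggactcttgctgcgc
CBLB: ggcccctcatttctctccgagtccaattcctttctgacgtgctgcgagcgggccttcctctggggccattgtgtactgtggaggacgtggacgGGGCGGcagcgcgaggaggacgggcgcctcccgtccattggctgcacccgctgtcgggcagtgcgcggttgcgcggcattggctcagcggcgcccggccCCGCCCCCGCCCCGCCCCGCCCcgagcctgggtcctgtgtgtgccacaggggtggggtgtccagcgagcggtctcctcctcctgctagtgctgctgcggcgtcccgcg
They lie on the minus strand at chr1:8026260-8026559, chr3:66500973-66501272 and chr3:105868963-105869262. All are rich in G and C, at 74.7% in ERRFI1 and LRIG1 and 72.0% in CBLB. ERRFI1 has 1 SP1 match, LRIG1 has 3 and CBLB has 5, of which 4 lie in a single run. Of 35116 RefSeq promoters of this length, 45.0% hold this motif on either strand, so its presence does not set these genes apart. AP-1 (TGACTCA, in 4.95% of promoters), CRE (TGACGTCA, 1.85%), ETS (CCGGAAG, 10.3%), the E-box CACGTG (7.26%) and TATAAA (11.5%), searched on both strands, had no match in the 3 promoters. Only these exact letters were searched, so variants such as the tatatata in the ERRFI1 sequence were not counted.

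ERRFI1 (chromosome 1, 8011727 to 8026309, minus strand) was the only member higher in the resistant lines by the test. Its RNA was at 39.4, 40.8 and 42.0 CPM in parental libraries, at 105, 99.98 and 101 CPM in R1 and at 108, 109 and 106 CPM in R2. Every resistant library was above 2 times the highest parental one, and the libraries within a line were close together. The log2 difference from parental cells was 1.33 in R1 (SE 0.0559, adjusted p = 7.94e-17) and 1.40 in R2 (SE 0.0557, adjusted p = 2.22e-17). These exceeded the absolute change of 87.9% and 89.2% of all genes tested.

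LRIG1 (chromosome 3, 66378797 to 66501121, minus strand) went the other way. The parental libraries were at 61.3, 61.7 and 59.9 CPM, those of R1 at 28.0, 27.9 and 28.2 CPM, and those of R2 at 22.8, 20.3 and 22.8 CPM. The lines formed a descending order without overlap from parental over R1 to R2. LRIG1 fell by 1.12 on the log2 scale in R1 (SE 0.067, adjusted p = 1.48e-13) and by 1.47 in R2 (SE 0.069, adjusted p = 8.29e-16). Its last bases overlap SLC25A26 on the opposite strand.

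Of the CBL ligases, CBLB fell and CBL did not pass. CBLB (chromosome 3, 105655461 to 105869449, minus strand) was at 19.4, 15.5 and 18.5 CPM in parental cells, at 6.13, 7.47 and 7.38 CPM in R1 and at 5.95, 5.82 and 5.88 CPM in R2. The lowest parental library was still above 2 times the highest resistant one. CBLB fell by 1.35 on the log2 scale in R1 (SE 0.115, adjusted p = 2.05e-10) and by 1.60 in R2 (SE 0.118, adjusted p = 1.19e-11), on 90 to 352 counts per library, the lowest depth among the members. CBL itself (chromosome 11, 119206339 to 119308149, plus strand) was at 62.1, 58.7 and 58.5 CPM in parental, 65.8, 59.2 and 57.6 CPM in R1 and 70.4, 66.0 and 62.5 CPM in R2 libraries. Its log2 differences from parental cells were 0.03 in R1 (95% interval -0.11 to 0.16, adjusted p = 0.804) and 0.15 in R2 (95% interval 0.02 to 0.28, adjusted p = 0.073). In R1 the interval for CBL ran from -7.04% to 11.6%, whereas the CBLB intervals run from -66.8% to -53.9% in R1 and from -72.1% to -61.0% in R2.

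Of the adaptors, GAB1 changed and the other two did not pass. GAB1 (chromosome 4, 143336876 to 143474565, plus strand), a docking protein that brings PI3K and SHP2 to receptor complexes, was at 24.3, 23.9 and 25.2 CPM in parental cells. It was at 13.3, 13.3 and 10.5 CPM in R1 and at 14.6, 12.6 and 13.7 CPM in R2. All resistant libraries were below all parental ones, on 168 to 479 counts. GAB1 fell by 0.99 on the log2 scale in R1 (SE 0.0966, adjusted p = 3.46e-09) and by 0.84 in R2 (SE 0.0953, adjusted p = 4.63e-08).

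GRB2 (chromosome 17, 75318076 to 75405678, minus strand) couples receptors to the RAS exchange factor SOS. It ranged from 150.3 to 162 CPM in parental libraries, 163 to 165 CPM in R1 and 161 to 167 CPM in R2. Its log2 differences of 0.07 (95% interval -0.03 to 0.17, adjusted p = 0.269) and 0.06 (95% interval -0.04 to 0.16, adjusted p = 0.365) did not pass. SHC1 (chromosome 1, 154962298 to 154974376, minus strand), which links phosphorylated receptors to GRB2, ranged from 66.0 to 71.0 CPM in parental, 72.9 to 80.0 CPM in R1 and 75.6 to 80.1 CPM in R2 libraries. The SHC1 ranges of the resistant lines did not overlap with the parental range, but its log2 differences of 0.14 (adjusted p = 0.0591) and 0.18 (adjusted p = 0.0148) stayed short of the threshold.

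**Figure D3:**
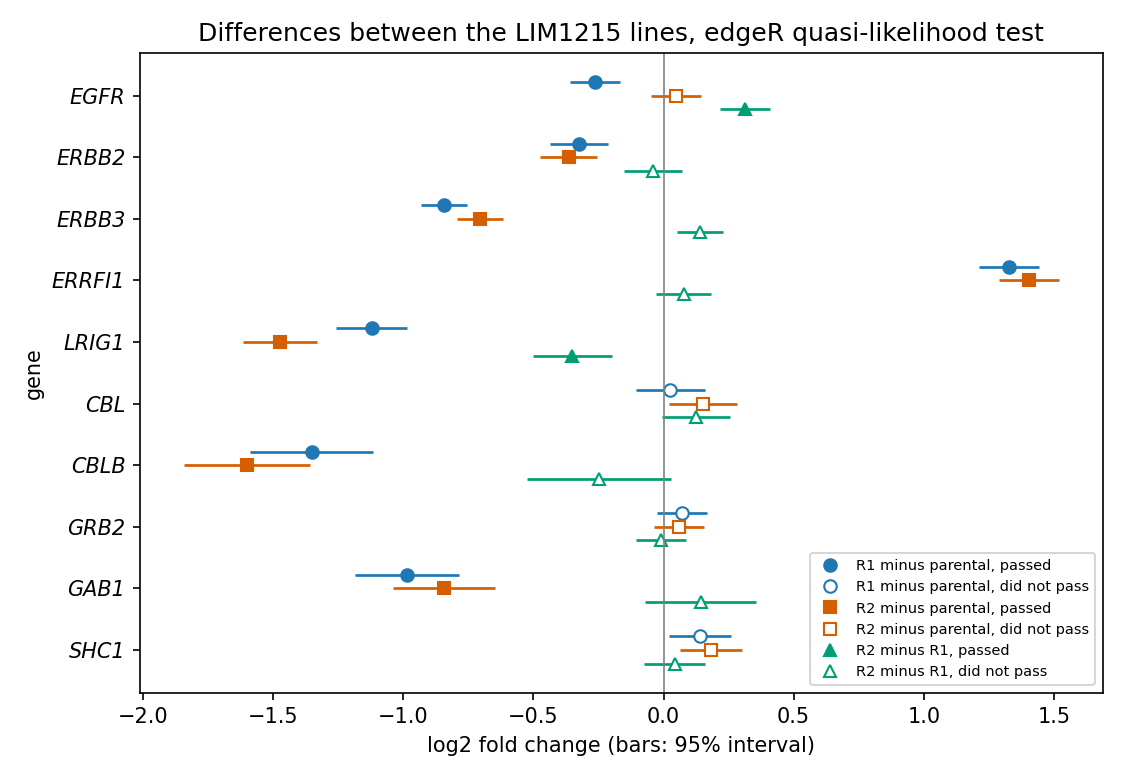
Log2 fold change (x axis) of each gene (y axis) for R1 minus parental, R2 minus parental and R2 minus R1, with 95% intervals, filled where the adjusted p was at most 0.01. ERRFI1 stands alone to the right at 1.33 and 1.40, CBLB and LRIG1 lie furthest to the left, and between the resistant lines EGFR (0.31) and LRIG1 (-0.35) are filled.

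Length-scaled levels placed the members on 1 scale within each line. In CPM per kilobase of exon union, the parental order was ERBB3 (34.7), GRB2 (33.2), ERBB2 (21.7), EGFR (17.3), SHC1 (15.8), ERRFI1 (9.74), LRIG1 (8.66), CBL (5.10), GAB1 (2.45) and CBLB (1.45). No neighbours in it overlapped, but the lowest ERBB3 library and the highest GRB2 library were level at 34.3479. In R1 and in R2, GRB2 came first (34.8 and 34.6) and ERRFI1 the second (24.4 and 25.8), ahead of ERBB3 (19.3 and 21.3). SHC1 and ERBB2 overlapped in R1, as did EGFR and SHC1 in R2. GAB1 (1.24 and 1.36) and CBLB (0.570 and 0.479) remained the lowest. Set against its target on the same scale, ERRFI1 was at 56.2 ± 1.44 per 100 EGFR in parental cells, at 169 ± 10.0 in R1 and at 144 ± 6.26 in R2 (SD, n = 3). The ranges did not overlap, running from 55.2 to 57.8, from 159 to 179 and from 139 to 151. For LRIG1 the same ratio went from 49.9 ± 1.00 in parental cells to 27.5 ± 1.04 in R1 and 17.4 ± 1.76 in R2. The inhibitors therefore moved in opposite directions relative to EGFR RNA. With MANE Select transcript lengths in place of the exon union, a choice made after seeing the data, ERRFI1 was at 47.1, 142 and 121 per 100 EGFR and came after GRB2, ERBB3 and ERBB2 in both resistant lines. In parental cells ERBB2 (49.2) then came before GRB2 (47.8), and their libraries overlapped.

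The comparison of R2 with R1 tests whether the 2 derivatives differ, in the same fit over all 9 libraries. Of the members 2 passed, 1 higher and 1 lower, against 7.16% of all genes tested (3.39% higher and 3.77% lower). Among genes averaging 100 counts or more, 11.1% passed. The libraries of 5 members did not overlap, as for 28.0% of all genes. EGFR was higher in R2 by 0.31 on the log2 scale (SE 0.0463, 95% interval 0.22 to 0.41, adjusted p = 2.3e-05), and all R2 libraries lay above all R1 libraries. LRIG1 was lower in R2, with a difference of -0.35 on the same scale (SE 0.074, 95% interval -0.50 to -0.20, adjusted p = 0.00162). This call was lost without R1 replicate 3 (log2 difference -0.35, adjusted p = 0.0102) or without R2 replicate 2 (-0.30, adjusted p = 0.0228). ERBB3 was 0.14 higher (95% interval 0.05 to 0.23, adjusted p = 0.031) and CBLB differed by -0.25 (95% interval -0.53 to 0.03, adjusted p = 0.265), without overlap between the lines but short of the threshold. For ERRFI1 the difference of 0.08 (95% interval -0.03 to 0.18, adjusted p = 0.392) leaves room for a change of -1.99% to 13.6%. The remaining members, ERBB2, CBL, GRB2, GAB1 and SHC1, overlapped between R1 and R2, with log2 differences from -0.04 to 0.14.

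The surrounding pathway was described with lists of further genes, also chosen with earlier results of these data known. Of 11 ERBB ligands 8 were tested, and 4 were higher and 0 lower in each resistant line (of all genes tested, 14.0% were higher in R1 and 12.3% in R2). Among genes averaging 100 counts or more, 40.3% in R1 and 34.9% in R2 passed in either direction. The epiregulin gene EREG went from 34.5 CPM in parental cells to 287 CPM in R1 and 139 CPM in R2. The amphiregulin gene AREG went from 19.9 to 81.5 and 63.5 CPM, with betacellulin (BTC) at 10.6, 20.2 and 17.0 CPM. TGFA, the other ligand that passed, changed less, at 55.2, 72.3 and 76.0 CPM (log2 differences 0.39 and 0.46).

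Of 15 further negative regulators (phosphatases, ligases and relatives of the members) 13 were tested. In R1, 4 were higher and 2 lower, with a median log2 difference of -0.05, and in R2 3 were higher and 3 lower, with a median of 0.00. Of all genes tested 27.3% passed in R1 and 23.8% in R2, and of genes averaging 100 counts or more 40.3% and 34.9%. UBASH3B had the largest change, at 10.2, 8.67 and 9.77 CPM in parental libraries, 39.1, 40.1 and 41.2 CPM in R1 and 41.3, 39.0 and 41.2 CPM in R2 (log2 differences 2.06 and 2.08, adjusted p = 2.94e-17 and 2.63e-17). It encodes a CBL-binding phosphatase that is known to slow the downregulation of EGFR, which is not what the name of its list says. The phosphatase genes PTPRJ (0.47 and 0.48) and PTPN12 (0.36 and 0.42) were higher in both lines on the log2 scale. LRIG3 (-0.50 and -0.40), a relative of LRIG1, and RNF41 (-0.28 and -0.32), which encodes the ERBB3 ligase NRDP1, were lower in both. CBLC, the third CBL gene, was lower in R2 (-0.35, adjusted p = 0.00331) and at -0.07 in R1 (adjusted p = 0.597). Between R2 and R1 0 of 13 passed in edgeR, 3 had an unadjusted p under 0.05, and DESeq2 passed 0. In edgeR 7.16% of all genes passed, and 11.1% of those averaging 100 counts or more.

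Further adaptors and exchange factors, 13 tested of 17, showed 0 higher and 5 lower in R1 and 0 higher and 7 lower in R2. Their median log2 differences were -0.19 and -0.30, against -0.01 and -0.00 for all genes tested, and 13.4% and 11.6% of all genes were lower. Among genes averaging 100 counts or more, 40.3% and 34.9% passed in either direction. GRB7, an adaptor gene neighbouring ERBB2, was at 27.4 ± 2.86 CPM in parental cells, 17.2 ± 1.92 CPM in R1 and 17.5 ± 1.33 CPM in R2. SOS1, the exchange factor that GRB2 carries to RAS, went from 96.7 CPM to 61.0 and 67.5 CPM (log2 differences -0.67 and -0.52). SOS2 (-0.52 and -0.32) and GRB10 (-0.41 and -0.51) were also lower in both lines on the log2 scale. GAB2, a relative of GAB1, was lower in R2 than in R1 (-0.32, adjusted p = 0.000513).

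All 18 genes of receptor endocytosis and sorting were tested, and 4 passed in R1 and 3 in R2. Of all genes tested 27.3% and 23.8% passed, and of genes averaging 100 counts or more 40.3% and 34.9%. The medians of the 18 genes were 0.01 and -0.01 on the log2 scale. SH3KBP1 (CIN85), a scaffold that joins CBL proteins to the endocytic machinery, was the gene that rose in both lines. It was at 26.1 ± 0.572 CPM in parental cells, 44.5 ± 1.29 CPM in R1 and 37.2 ± 1.02 CPM in R2 (log2 differences 0.77 and 0.51), and was lower in R2 than in R1 (-0.26, adjusted p = 0.00841). EPN1 (-0.29 in both) and ITSN1 (-0.21 and -0.29), which act in coated pit formation, were lower in both lines. USP8, a deubiquitinase that acts on sorted receptors, was lower in R1 (-0.23) and at -0.03 in R2 (adjusted p = 0.775). Its difference between R2 and R1 did not pass (0.20, adjusted p = 0.0189).

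**Figure D4:**
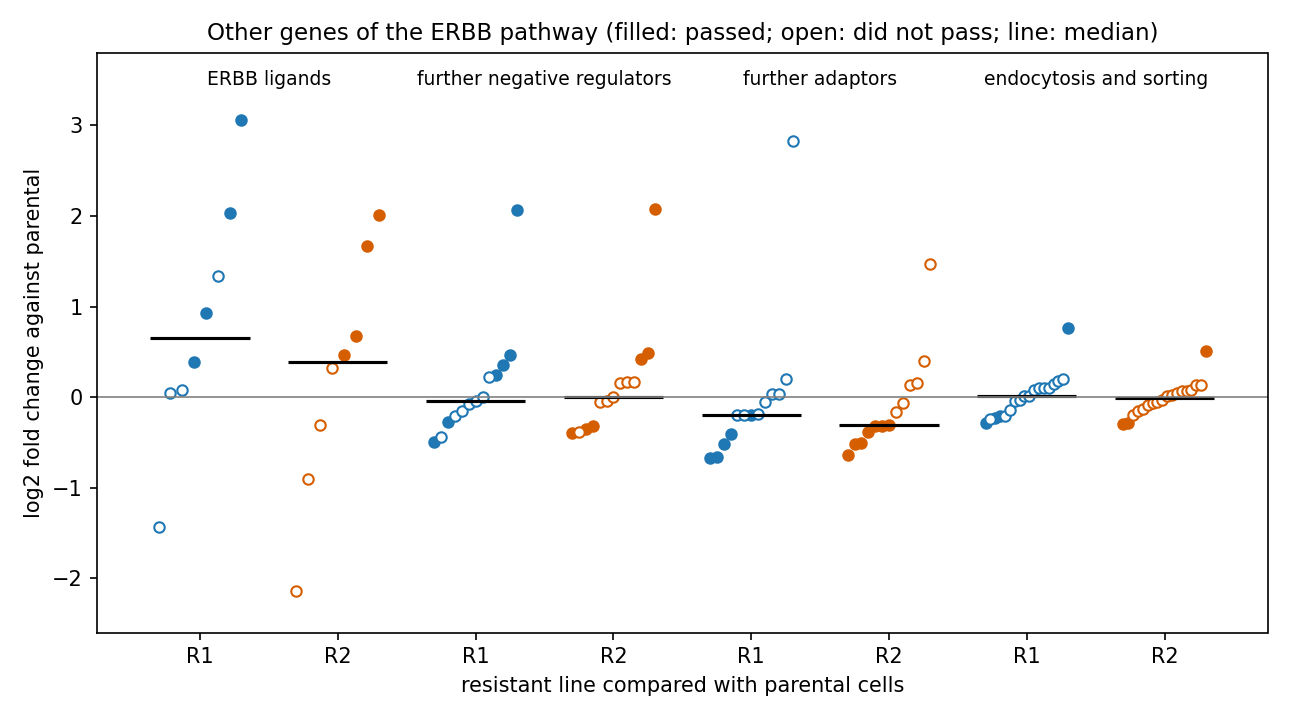
Log2 fold change against parental cells (y axis) of the tested genes of 4 further lists in R1 and R2 (x axis), with filled points for genes that passed, open points for those that did not and lines for medians. The ligands reach 3.06 in R1, the filled adaptors all lie below 0, and the endocytosis genes centre on 0. UBASH3B, listed with the further negative regulators but known to slow EGFR downregulation, stands apart from that list at 2.06 and 2.08.

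EGFR was lowest in R1, with parental and R2 libraries overlapping. Among 9302 genes with a mean of at least 10 CPM, those that followed it most closely over the 9 libraries were NF1 (Pearson's r = 0.977 on log2 CPM), FHDC1 (0.966), KMT2A (0.963), ASXL2 (0.960) and TRIO (0.960), and 60 genes reached 0.9. These coefficients are a description over libraries that share lines and composition.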

How the data were processed

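Stranded polyadenylated RNA libraries were aligned by the authors with STAR to hg38 and counted with HTSeq 0.9.1, and the deposited values are raw read counts per gene and library, without normalization. The gene annotation is not given in the sources used here. The files of all 9 libraries were used. Groups came from the sample titles.

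The 19102 of 58920 genes whose counts summed to at least 10 were scaled with TMM and fitted with edgeR 4.0.16 (R 4.3.3, glmQLFit and glmQLFTest) on 3 groups. Standard errors follow from the F statistic. Depth limits precision: 3 counts correspond to 0.160 to 0.218 CPM. No libraries agreed within sampling noise. Positions and promoters are from RefSeq (GRCh38.p14), and exon lengths from GENCODE. All 10 members were named, and of each further list up to 3 passing genes per direction and comparison with the largest change and at least 1 CPM. TGFA was added as the remaining ligand that passed. The 10 members and the lists were chosen with earlier results of these data known. Alternatives were DESeq2 1.42.0 (its test or size factors), no TMM, other count filters, GC and length trends removed, a replicate block, only the libraries compared, 1 library left out, and other transcript lengths. The fit was tested on simulated data.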

Additional observations from a re-analysis of the deposited data

Results flagged for a closer look

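The differences of LIM1215-R1 and LIM1215-R2 from the parental line were unequal for 2 of the 10 genes, by the edgeR comparison of R2 with R1. EGFR differed by 0.31 on the log2 scale (R2 minus R1, adjusted p = 2.3e-05), being lower than parental in R1 only. LRIG1 differed by -0.35 (adjusted p = 0.00162), being lower than parental in both lines and lowest in R2. This LRIG1 call was lost in 2 of 17 alternatives. For the other members a difference between the lines did not pass.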

How the results depend on the processing

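Of the 30 member log2 fold changes under 17 alternatives, 498 kept direction and call, 2 lost and 5 gained the call, and 5 changed sign, all of them small differences that did not pass in either case. These were CBL between R1 and parental (0.03) with total counts only (-0.0079) and without R1 replicate 1 (-0.033 to 0.065 with 1 library left out), ERBB2 between R2 and R1 (-0.04) with GC and length trends removed (0.016), and GRB2 between R2 and R1 (-0.01) with total counts only (0.0088) and with those trends removed (0.022). The calls lost were those of LRIG1 between R2 and R1 when a resistant library was left out. With 1 library left out, 7 members passed in R1 against parental in each case, 6 to 7 in R2 against parental, and 1 to 2 between R2 and R1. Over all genes, 1368 passed between R2 and R1, but 743 without R2 replicate 1, 772 without R2 replicate 2 and 860 without R1 replicate 3. With the added threshold of 1.5 on the log2 scale the counts of members were 0, 1 and 0. SHC1 passed between R2 and parental (0.18, 0.21 and 0.18 on the log2 scale) with the block, without parental replicate 2 and without R1 replicate 2, and ERBB3 between R2 and R1 with the block (0.14) and with GC and length trends removed (0.16).

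Replicate numbers are shared between lines, but same-numbered libraries deviated together with correlations from -0.11 to 0.27, and not every library correlated best with its own number. With the replicate block, 7, 7 and 3 members passed and 5841, 5197 and 2044 of all genes, against 5222, 4554 and 1368 without it.

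Receptor shares moved with the length used. EGFR in parental cells was at 23.7% with mean transcript length. With MANE Select lengths EGFR was at 18.7%, 22.6% and 25.9% in parental, R1 and R2 cells, ERBB2 at 32.9%, 38.2% and 34.3%, and ERBB3 in R2 at 39.8%. In each case the mean ERBB3 share was lower, and that of EGFR higher, in the resistant lines than in parental cells. Depth limits CBLB most.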
